A study of Mus musculus with 8 samples.

Results

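The genes described here are 39 genes of the outer skin layer, namely precursors, scaffolds and enzymes of the cornified envelope, 5 barrier lipid genes, 6 secreted and surface proteins of the upper layers and 2 transcription factors. They were taken by name from the mouse array and followed in sorted skin cells of a mouse model of basal cell carcinoma. The mice were with or without the drug vismodegib. The sample titles name the populations by Lgr5 and Lrig1 and do not say which cells are tumour cells. Of the 39, 38 had a probe set that maps to that gene alone, the exception being Sprr4, and 34 passed the filter on dim signals. The array held 17097 such genes in all, of which 14403 passed. Where a gene had several probe sets, the one with the highest mean over the arrays was used. Sprr3, Lce1a1, Flg and Hrnr did not pass because at most 1 array lay above 4.85, the 25th percentile of all log2 values. Of the 34 that passed, 28 lay above it in all 8 arrays, and the low ones were Rptn, Casp14, Spink5, Abca12, Alox12b and Cers3.

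All mice had the genotype K14-CreER/Ptch1cKO, in which a Cre recombinase driven by the keratin 14 promoter deletes Ptch1, the receptor that holds the Hedgehog pathway in check. The untreated group and the Vismodegib group had 2 mice each, and the labels give no age, dose or time. From back skin, thermolysin was used to part the epidermis, and living cells were sorted as Lrig1+ cells without (Lrg5- in the labels) or with the Lgr5-GFP reporter. Lrig1 marks the upper hair follicle, and Lgr5 is a Wnt target that marks follicle stem cells. Each mouse gave 1 array of each population, hence 2 arrays in each of 4 groups, and the controls carry the same deletion as the treated mice. Vismodegib blocks Smoothened, the activator downstream of Ptch1.

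The cornified envelope is the protein shell that replaces the membrane of a dying keratinocyte at the skin surface. Transglutaminases cross-link involucrin, periplakin, envoplakin, loricrin and small proline-rich proteins into it, and ceramides with very long acyl chains are attached to its outside. Many of the precursor genes lie together on mouse chromosome 3 in the epidermal differentiation complex. In normal skin the programme belongs to the upper layers, and basal cells and hair follicle stem cells show little of it.

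Signals are log2 values, so a difference of 1 is a 2-fold change, and levels of different genes are not compared because their probes bind differently. Values are given with mouse 1 first, and mouse numbers tie arrays together only within a treatment. The 8 arrays had medians between 6.13 and 6.20. Krt5 lay between 12.71 and 12.92 and Krt14 between 12.23 and 12.67 on every array, so the defining keratins of basal keratinocytes were present throughout. Ptch1 itself read 10.56 to 11.91 in untreated and 7.72 to 8.78 in treated arrays, which does not check the deletion, since its extent is not given in the labels. Lgr5, on which the cells were sorted, was higher in the Lgr5-positive array of each mouse. In Lgr5-negative arrays it read 8.52 and 8.40 untreated but 5.46 and 4.83 after the drug. It fell with the drug by 3.31 in Lgr5-negative and by 1.25 in Lgr5-positive cells (adjusted limma p 0.00166 and 0.0189). The second effect minus the first was 2.06 (adjusted limma p 0.0413). Lrig1 was higher in untreated Lgr5-positive cells, by 0.79 (adjusted limma p 0.0192). The part of these differences in the members' results was not tested. Gli1, a direct Hedgehog target, fell by 3.52 in Lgr5-positive and by 2.44 in Lgr5-negative cells with the drug. In these bulk samples, fewer cells of a type and less RNA per cell cannot be told apart.

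**Figure D1:**
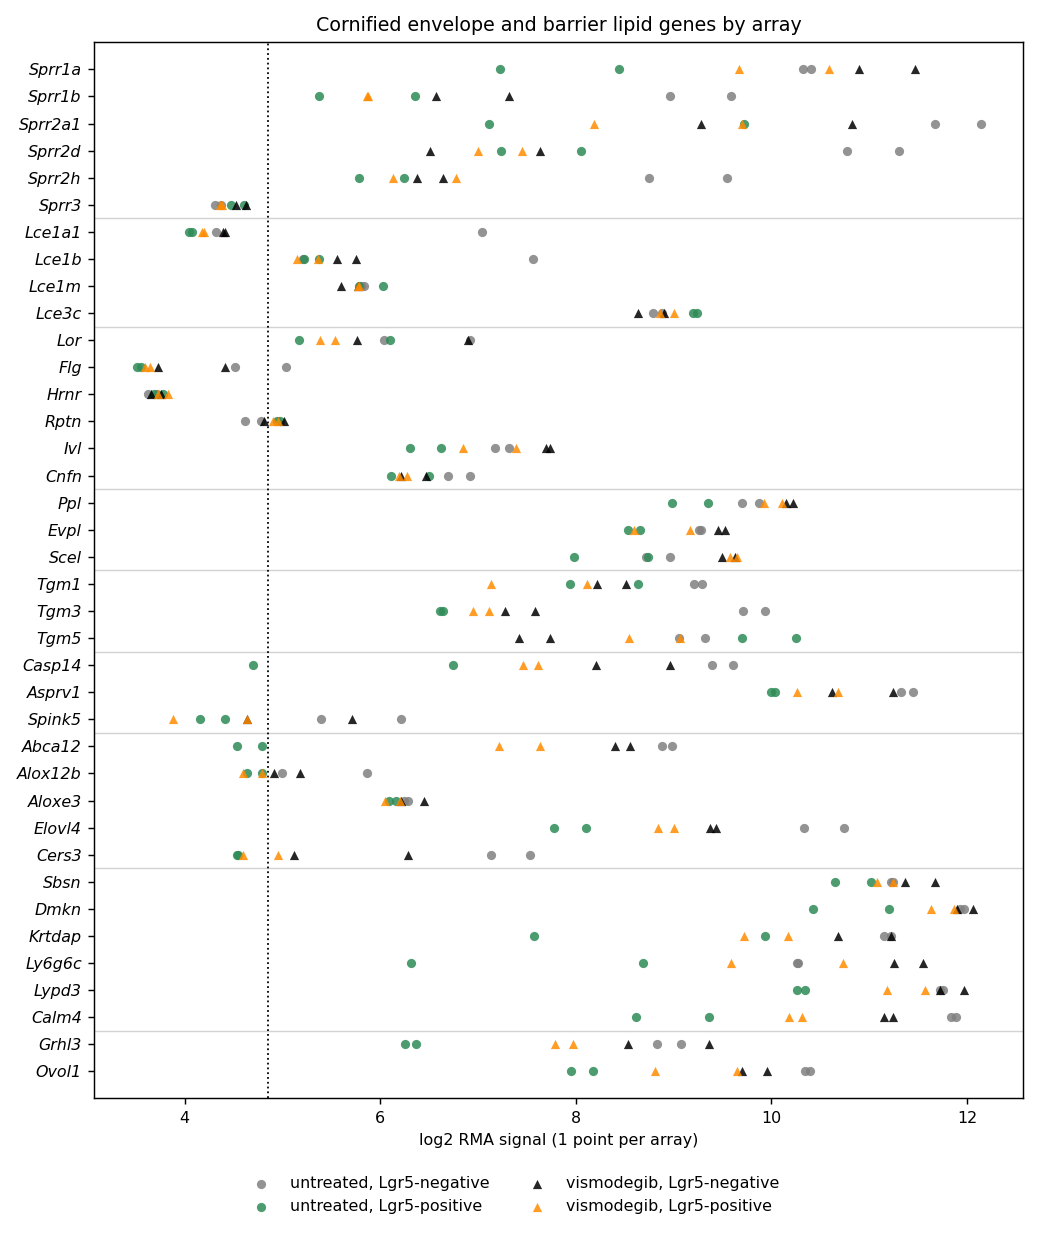
Log2 RMA signal of the 38 members with a probe set, 1 point per array, with grey lines between the functional groups and a dotted line at the filter value of 4.85. In Abca12, Tgm3, Sprr2h, Calm4 and Elovl4 both untreated Lgr5-negative arrays (grey circles) sit more than 2 units above both untreated Lgr5-positive arrays (green circles).

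In untreated mice, cells with Lgr5 had far less envelope and barrier RNA than Lgr5-negative cells of the same mice. Of the 34 members tested, 22 were lower in Lgr5-positive cells at a Benjamini-Hochberg adjusted limma p under 0.05, and 0 were higher. Over all genes tested, 10.9% were lower and 6.21% higher. The members were chosen with earlier results of these data known. Here and below, their counts beside those of all genes are therefore a description and not independent support. Spink5 and Alox12b passed the filter on dim signals only through Lgr5-negative arrays, and without both 21 of 32 members were lower. Cers3, still among the 21, also needed Lgr5-negative arrays to pass. Of its Lgr5-positive arrays only that of vismodegib mouse 1 lay above the filter value, at 4.96. The median difference of the members, Lgr5-positive minus Lgr5-negative, was −1.41, against 0.02 over all genes. Counted by sign alone, 29 of the 34 were lower in the Lgr5-positive array of both untreated mice, against 35.5% of all genes. At an unadjusted p under 0.05, 2 members were higher, Tgm5 and Lce3c, against 13.2% of all genes.

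Among the largest untreated differences were those in Abca12, the lipid transporter that loads lamellar granules (−4.27 ± 0.17 standard error), in Casp14, a protease of the horny layer (−3.78 ± 0.58), and in Sprr2a1 (−3.49 ± 0.89). No folds are given for Abca12 and Casp14, because both untreated Lgr5-positive arrays of Abca12 and that of mouse 1 for Casp14 were under the filter value. Without untreated Lgr5-positive array 1 the difference was −2.76 for Casp14 and −2.19 for Sprr2a1, and without array 2 it was −4.80 for both. Under every alternative that could be computed for them, including the omission of each array, 11 genes kept their call. These were Abca12, Calm4, Cers3, Elovl4, Grhl3, Lypd3, Ovol1, Sprr1b, Sprr2d, Sprr2h and Tgm3, of which Cers3 passed the filter only with its Lgr5-negative arrays. Without the Lgr5-negative array of untreated mouse 1 the count of lower members was 14, of which Alox12b and Lce1b were new. Asprv1, Dmkn, Evpl, Ivl, Krtdap, Ly6g6c, Ppl, Spink5, Sprr1a and Sprr2a1 then had adjusted p of 0.0505 to 0.159. Without the Lgr5-negative array of untreated mouse 2 the count was 11, and those genes and Casp14 had adjusted p of 0.0537 to 0.261. Leaving out any other array left 18 to 21, with Evpl, Ivl, Krtdap, Ly6g6c, Ppl, Spink5 and Sprr2a1 losing the call at least once (adjusted p 0.0536 to 0.152). With no filter, Evpl, Krtdap, Spink5 and Sprr2a1 did not pass (0.0514 to 0.0619), and with only the 4 arrays compared Krtdap, Ly6g6c and Ppl did not (0.0572 to 0.0776).

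After vismodegib, 0 of the 34 members differed between the populations at an adjusted limma p under 0.05, where 0.34% of all genes were higher and 0.132% lower in Lgr5-positive cells. At an unadjusted p under 0.05, 12 members were lower and 1, Tgm5, was higher, against 5.98% and 6.16% of all genes. The missed threshold does not show that the populations were alike. By sign alone, 27 of the 34 members were lower in the Lgr5-positive array of both treated mice, against 30.3% of all genes. In the mean of the mice 28 had a difference below 0, where the median over all genes was −0.01. Of the 22 members that were lower in untreated Lgr5-positive cells, 20 were lower in both treated mice as well.

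Over all 34 members the median difference was −1.41 untreated and −0.48 after the drug. The 22 were picked for their untreated difference, so a smaller one in a second comparison is no test, and their medians of −2.62 and −0.76 are given as a description. The smallest adjusted p after the drug was 0.0613, for Abca12, whose difference of −1.05 had a 95% interval of −1.45 to −0.66. The interval was −1.65 to −0.49 for Grhl3, −1.47 to −0.44 for Calm4 and −0.74 to −0.05 for Tgm3. For Sprr2d it was −0.81 to 1.12 and for Sprr2h −0.79 to 0.68, so neither sign could be told for that pair. Without either untreated Lgr5-positive array Calm4 passed (adjusted p 0.0395). Without the Lgr5-negative array of vismodegib mouse 2 Cers3 (0.046) and Grhl3 (0.0266) passed. With the filter at the median of all values, 1 member passed, Abca12 (0.0446).

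**Figure D2:**
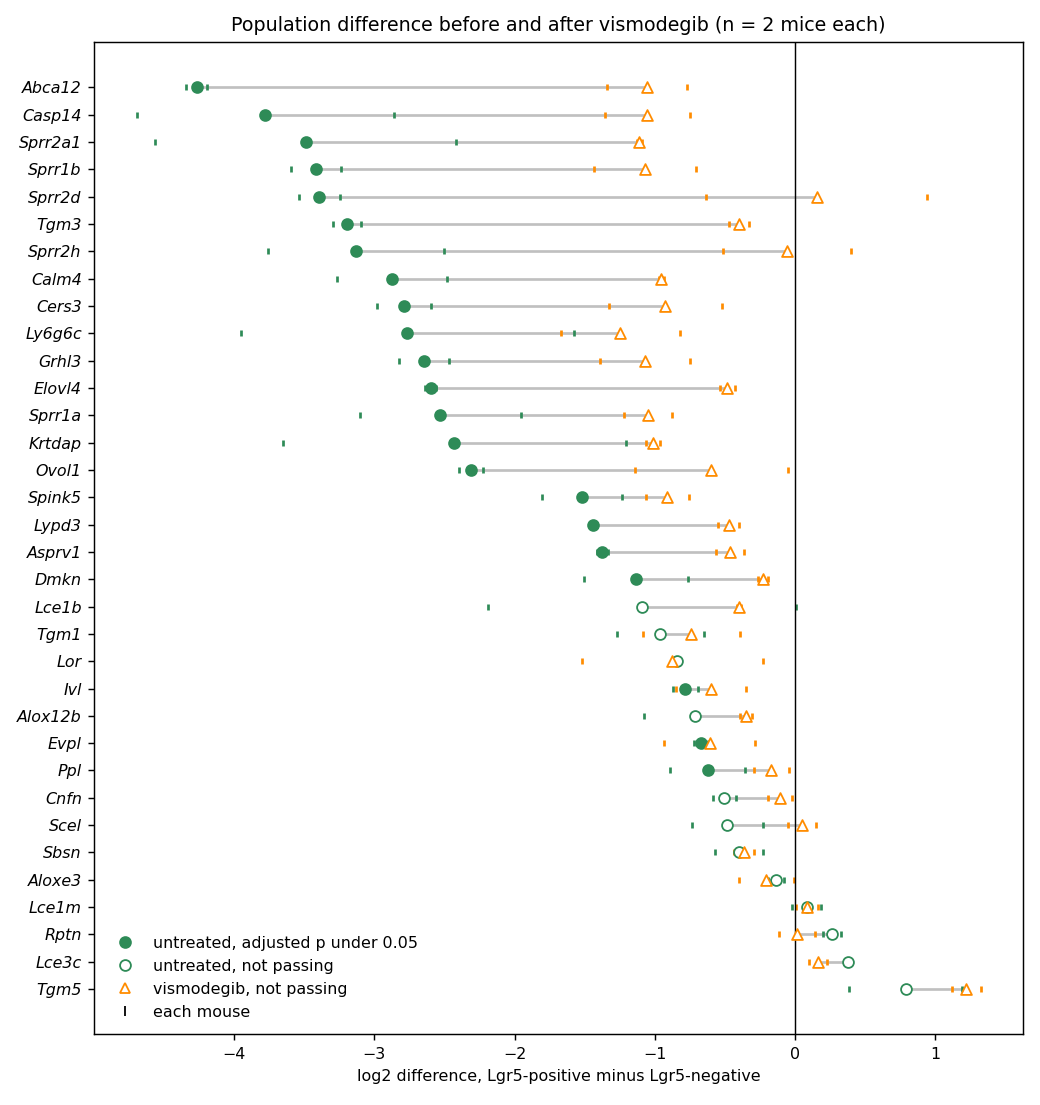
Log2 difference between Lgr5-positive and Lgr5-negative cells for the 34 members tested, as the mean of 2 untreated mice (circles) and of 2 vismodegib mice (triangles), with each mouse as a tick, filled where the adjusted p is under 0.05. The 22 filled circles lie between −4.27 and −0.62, and the triangles of the same genes lie between −1.24 and 0.15.

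The drug effect in each population was tested separately. In Lgr5-positive cells, 10 members rose with vismodegib and 1 fell, against 6.37% and 4.51% of all genes, with a median change of 0.42 against −0.01. In Lgr5-negative cells, 0 rose and 6 fell, against 1.26% and 2.06% of all genes, with a median of −0.42 against 0.00. At an unadjusted p under 0.05, 3 members were higher in Lgr5-negative cells, Ppl, Ivl and Scel, against 8.44% of all genes. The drug effect in Lgr5-positive cells shares its untreated arrays with the untreated population difference, and so does the effect in Lgr5-negative cells, so these comparisons are not independent of one another.

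The genes that rose in Lgr5-positive cells were Abca12, Sprr1a, Grhl3, Calm4, Scel, Ovol1, Lypd3, Elovl4, Dmkn and Ppl, by 2.76 down to 0.85. Without the Lgr5-positive array of vismodegib mouse 1 only Abca12 and Lypd3 passed, a count of 2, and the other genes had adjusted p of 0.0593 to 0.222. Without that of vismodegib mouse 2 the count was 6, with Calm4, Dmkn, Elovl4, Ppl and Scel lost (0.0523 to 0.121) and Ivl gained. Dmkn and Ovol1 were also lost without other arrays (0.0552 to 0.094) and Ppl without untreated Lgr5-positive array 2 (0.0529), whose omission brought in Casp14, Krtdap and Ly6g6c. Dmkn had an adjusted p of 0.0639 with the mouse number as a replicate block, 0.0598 with no filter and 0.0619 with cyclic loess. With only the 4 arrays compared, Dmkn, Ovol1 and Sprr1a did not pass (0.0525 to 0.112).

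The genes that fell in Lgr5-negative cells were Sprr2d, Sprr2h, Tgm3, Sprr1b, Tgm5 and Elovl4. Tgm3 kept its call without each array. Without the Lgr5-negative array of untreated mouse 2 it was the only member left, a count of 1, and the other 5 had adjusted p of 0.056 to 0.178. Sprr1b, Tgm5 and Elovl4 were each lost without at least 1 further Lgr5-negative array (0.0541 to 0.107), and Elovl4 with only the 4 arrays compared (0.0542).

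The test of the difference between the drug effects in the populations was passed by 6 members, with the effect in Lgr5-positive cells the higher in each. These were Sprr2d (3.55 ± 0.59), Abca12 (3.21 ± 0.24), Sprr2h (3.07 ± 0.45), Tgm3 (2.79 ± 0.21), Elovl4 (2.12 ± 0.25) and Calm4 (1.92 ± 0.31). Of all genes, 0.993% passed in this direction and 0.41% in the other, where 0 members passed at the adjusted threshold and 0 at an unadjusted p under 0.05, against 7.23% of all genes. The median of the 34 was 0.91, against −0.002 over all genes, and 30 of the 34 lay above 0. With each mouse as a replicate block, which uses the fact that both populations came from the same animal, 9 passed, with Sprr1b (adjusted p 0.0219), Cers3 (0.0381) and Grhl3 (0.0438) added. Abca12 alone passed under every alternative. Without the Lgr5-positive array of vismodegib mouse 1 it was the only one of the 6 left, and Tgm3 had an adjusted p of 0.0538. Without the Lgr5-negative array of untreated mouse 2 the count was 2, Abca12 and Tgm3, and without that of vismodegib mouse 2 it was 3, with Elovl4. Calm4, Sprr2d, Elovl4 and Sprr2h had adjusted p of 0.0511 to 0.181 where they were lost. With no filter, Calm4 (0.0523) and Sprr2d (0.0569) did not pass.

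**Figure D3:**
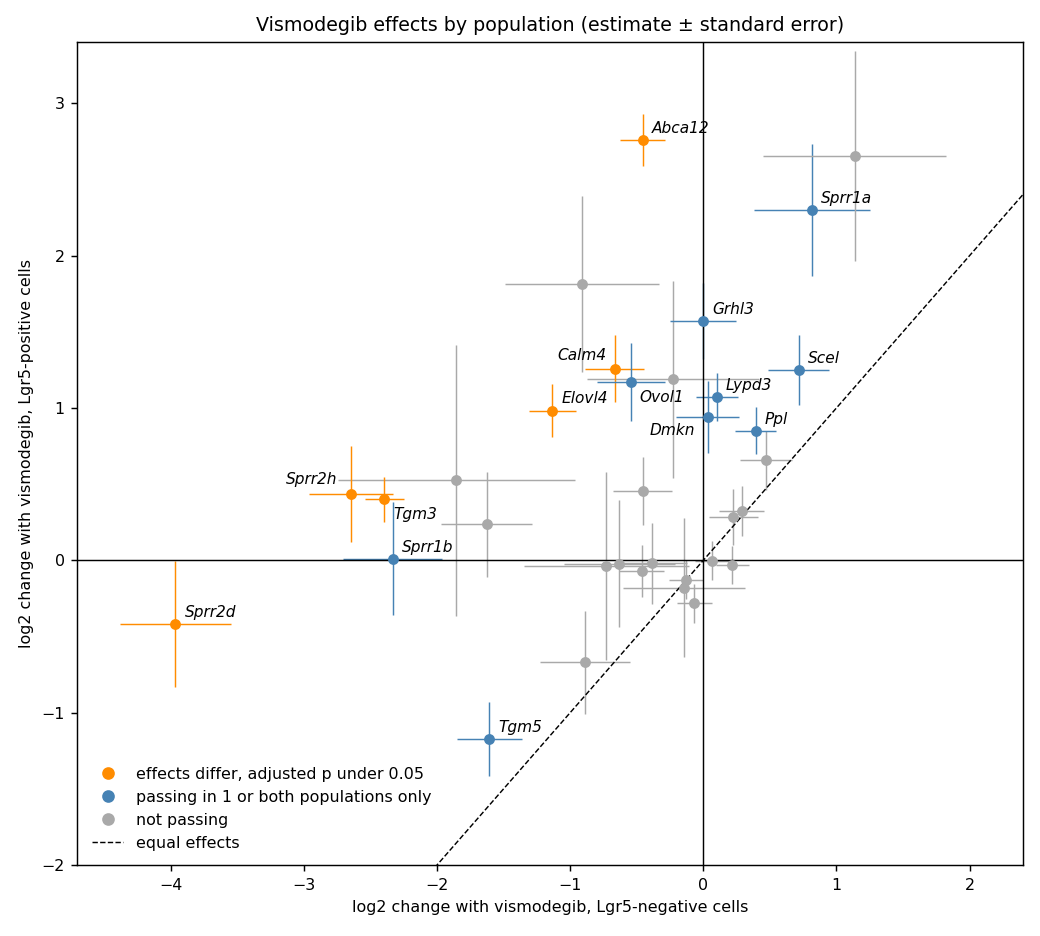
Log2 change with vismodegib in Lgr5-negative cells (horizontal) and Lgr5-positive cells (vertical) for the 34 members, with standard errors and n = 2 arrays per group. Abca12 lies at 2.76 on the vertical axis with little change on the horizontal one, Sprr2d lies at −3.96 on the horizontal axis, and Tgm5 alone is below 0 on both axes with a call in each.

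The small proline-rich proteins are flexible cross-bridging precursors of the envelope, and the Sprr1 and Sprr2 genes are strongly induced in stressed and wounded epidermis. Sprr1a, Sprr1b, Sprr2a1, Sprr2d and Sprr2h could be tested, and all 5 were lower in untreated Lgr5-positive cells, against 10.9% of all genes. Their responses to the drug differed within the family, so the promoter sequences of the 4 that also responded to vismodegib are given here, beside that of Abca12, which had the largest rise. They are the 250 bases before the transcript start of the RefSeq promoter table in the build GRCm38.p6, 5′ to 3′ on the gene's strand. For Sprr1b that start lies inside the outer bounds of the gene record. Capitals mark every match to TGANTCA, the element bound by AP-1 factors such as Fos and Jun. The positions are chr3:92485882-92486131 (minus strand) for Sprr1a, chr3:92438780-92439029 (minus strand) for Sprr1b, chr3:92338890-92339139 (plus strand) for Sprr2d, chr3:92385435-92385684 (plus strand) for Sprr2h and chr1:71414911-71415160 (minus strand) for Abca12.
Sprr1a: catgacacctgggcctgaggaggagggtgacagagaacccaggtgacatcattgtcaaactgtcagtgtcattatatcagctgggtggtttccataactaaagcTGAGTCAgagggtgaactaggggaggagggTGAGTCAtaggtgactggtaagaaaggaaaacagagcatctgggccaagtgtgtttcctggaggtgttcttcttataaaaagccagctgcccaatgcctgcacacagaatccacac
Sprr1b: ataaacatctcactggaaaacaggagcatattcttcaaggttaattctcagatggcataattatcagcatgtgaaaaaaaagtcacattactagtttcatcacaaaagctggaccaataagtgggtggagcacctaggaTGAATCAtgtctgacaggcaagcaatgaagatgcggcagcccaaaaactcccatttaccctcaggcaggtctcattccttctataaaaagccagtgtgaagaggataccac
Sprr2d: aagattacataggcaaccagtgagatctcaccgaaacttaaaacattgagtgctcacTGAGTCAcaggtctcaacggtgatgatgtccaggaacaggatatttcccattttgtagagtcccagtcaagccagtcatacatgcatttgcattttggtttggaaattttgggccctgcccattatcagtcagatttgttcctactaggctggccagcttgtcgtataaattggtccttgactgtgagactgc
Sprr2h: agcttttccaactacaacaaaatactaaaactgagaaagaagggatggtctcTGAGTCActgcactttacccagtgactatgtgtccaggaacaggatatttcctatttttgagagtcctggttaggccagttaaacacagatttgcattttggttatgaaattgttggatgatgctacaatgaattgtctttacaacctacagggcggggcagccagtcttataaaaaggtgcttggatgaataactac
Abca12: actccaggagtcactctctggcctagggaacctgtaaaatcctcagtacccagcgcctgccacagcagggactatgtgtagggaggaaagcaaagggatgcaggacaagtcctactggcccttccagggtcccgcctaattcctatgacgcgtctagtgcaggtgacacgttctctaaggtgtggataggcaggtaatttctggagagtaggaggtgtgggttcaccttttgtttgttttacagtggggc

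The Sprr1a window held 2 AP-1 matches, beginning 146 and 116 bases before the start. Sprr1b had 1 at 111 bases, Sprr2d 1 at 193 and Sprr2h 1 at 198, while Abca12 had none in this window. The Sprr2d and Sprr2h windows were identical at 65.0% of aligned positions, and the other pairs among these Sprr genes at 44.9% to 52.2%. RefSeq promoters were found for 34 of the 39 members, not for Ovol1, Spink5, Ppl, Evpl and Aloxe3. Searched on both strands, TGANTCA was in 12 of the 34 windows (35.3%), against 7.82% of 27025 genes, and in none did it overlap another motif searched. TATAAA was in 41.2% against 14.3%, the KLF motif CCACCC in 38.2% against 30.6% and the C/EBP motif TTGCNNAA in 17.6% against 10.8%. The Grainyhead motif AACNNGTT was in 1 window, that of Rptn (2.94% against 4.12%), and the GLI motif TGGGTGGTC in 0, against 0.255% of all genes. Of the 11 tested members with an AP-1 match, 7 were lower in untreated Lgr5-positive cells, and of the 18 tested without one, 11 were. The share of all genes tested was 10.9%.

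Sprr2d read 10.77 and 11.30 in untreated Lgr5-negative cells and 7.23 and 8.06 in untreated Lgr5-positive cells. After vismodegib it read 7.63 and 6.51 in Lgr5-negative and 7.00 and 7.45 in Lgr5-positive cells. The untreated Lgr5-negative cells thus stood alone at the top, and the other 3 groups overlapped. Its fall in Lgr5-negative cells was −3.96 ± 0.41, a 15.6-fold decrease (adjusted p 0.00473), and its change in Lgr5-positive cells was −0.42 ± 0.41 (adjusted p 0.614). Sprr2h was also highest in untreated Lgr5-negative cells, at 8.75 and 9.55 against 6.25 and 5.79 in untreated Lgr5-positive cells. It read 6.64 and 6.37 after the drug in Lgr5-negative and 6.13 and 6.77 in Lgr5-positive cells, and its fall in the former was −2.64 ± 0.31, or 6.24-fold. Sprr2 genes are close copies of one another, and the probe sets of Sprr2h, Lce1a1, Lce1m, Lce3c and Lor carry a suffix (s or x) that warns of probes shared between transcripts, so these values are less certain.

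Sprr1b read 8.96 and 9.59 in untreated Lgr5-negative cells against 5.37 and 6.35 in Lgr5-positive cells. After vismodegib the values were 7.31 and 6.57, a fall of 2.33 ± 0.37 (5.04-fold), against 5.88 and 5.87, a change of 0.01 ± 0.37. The Lgr5-negative arrays thus came down towards a Lgr5-positive level that stayed within the untreated range. Sprr1a went another way. It read 10.33 and 10.40 in untreated Lgr5-negative and 7.22 and 8.45 in untreated Lgr5-positive cells, then 11.47 and 10.89 in Lgr5-negative and 10.59 and 9.67 in Lgr5-positive cells after the drug. The rise in Lgr5-positive cells was 2.30 ± 0.43 (4.92-fold, adjusted p 0.0162), with no overlap of the groups, and Lgr5-negative cells were at 0.82 ± 0.43 (adjusted p 0.365). Whether the 2 drug effects on Sprr1a differed was not settled, as the difference of 1.48 had an interval of 0.05 to 2.92 and an adjusted p of 0.267.

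Sprr2a1 was the most variable of them. It read 11.68 and 12.14 in untreated Lgr5-negative cells and 7.11 and 9.72 in Lgr5-positive cells, then 10.83 and 9.28 in Lgr5-negative and 9.70 and 8.19 in Lgr5-positive cells. Neither drug effect passed, and the groups of treated mice overlapped. Sprr3 read 4.31 to 4.62 on all 8 arrays and was dim throughout.

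The late envelope proteins, made at the last step of cornification, moved little. Lce1m read 5.60 to 6.02 and Lce3c 8.64 to 9.24, and neither passed in any comparison. Lce3c was 8.79 and 8.88 in untreated Lgr5-negative and 9.19 and 9.24 in untreated Lgr5-positive cells, a difference of 0.38 ± 0.13 (adjusted p 0.0861, and 0.0449 with cyclic loess between arrays). Lce1b and Lce1a1 stood out on 1 array, the Lgr5-negative array of untreated mouse 2. There Lce1b read 7.56, against 5.15 to 5.75 on the other 7, and Lce1a1 read 7.04, against 4.05 to 4.41. Without untreated Lgr5-negative array 1, Lce1b differed between the untreated populations by −2.26 (adjusted p 0.00455), a value that then rests on that array.

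Of the large structural proteins, filaggrin and hornerin, which bundle keratin filaments and then yield moisturising factors, were at the limit of detection. Flg read 4.52 and 5.04 in untreated Lgr5-negative cells and 3.51 to 4.42 elsewhere, and Hrnr 3.63 to 3.83. With no filter, Flg was lower in untreated Lgr5-positive cells (−1.25, adjusted p 0.0213). Lor, which encodes loricrin, the most abundant envelope protein of normal epidermis, read 5.17 to 6.92 and passed in no comparison, and Rptn read 4.61 to 5.02. Involucrin, the early scaffold of the envelope, was lower in untreated Lgr5-positive cells. Ivl read 7.17 and 7.32 in untreated Lgr5-negative and 6.30 and 6.62 in Lgr5-positive cells, then 7.74 and 7.70 in Lgr5-negative and 7.39 and 6.85 in Lgr5-positive cells. The untreated difference was −0.78 ± 0.20 (adjusted p 0.0342), and the Lgr5-positive drug effect of 0.66 ± 0.20 had an adjusted p of 0.0754. Cnfn, or cornifelin, read 6.11 to 6.92, and its untreated difference of −0.50 did not pass (adjusted p 0.0831). It passed with the replicate block (0.0452) and, at −0.70, without untreated Lgr5-positive array 2 (0.0465).

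The plakins and sciellin form the scaffold beneath the membrane on which the envelope is built. Ppl (periplakin) read 9.70 and 9.87 in untreated Lgr5-negative and 9.35 and 8.98 in untreated Lgr5-positive cells, then 10.22 and 10.15 and, in Lgr5-positive cells, 9.93 and 10.11. Both drug-treated groups lay above both untreated groups. The rise in Lgr5-positive cells was 0.85 ± 0.15 (1.80-fold, adjusted p 0.0139), and the untreated difference of −0.62 had an adjusted p of 0.0333, or 0.0501 with the replicate block. Scel read 8.73 and 7.99 in untreated and 9.58 and 9.64 in treated Lgr5-positive cells, a rise of 1.25 ± 0.23 (2.38-fold, adjusted p 0.0146). In Lgr5-negative cells it read 8.96 and 8.72, then 9.62 and 9.49, where the change of 0.72 ± 0.23 had an adjusted p of 0.149. With the mean of probe sets that change was 0.91 and passed (adjusted p 0.0298). The other Scel probe set rose by 1.17 in Lgr5-positive and by 1.11 in Lgr5-negative cells. Its difference between the untreated populations was 0.14. With the probe set used, sciellin was at 9.49 to 9.64 in all treated arrays, whichever population they came from. Evpl (envoplakin) read 9.26 and 9.28 in untreated Lgr5-negative and 8.53 and 8.66 in untreated Lgr5-positive cells, and 9.45, 9.53, 9.17 and 8.60 after the drug in the same order, with no drug effect past the threshold. Its untreated difference of −0.67 ± 0.18 had an adjusted p of 0.0452, and 0.0521 to 0.0939 under no filter, cyclic loess, an intensity trend or array weights.

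The transglutaminases cross-link these proteins, and 3 of them are among the members. Tgm3 read 9.94 and 9.71 in untreated Lgr5-negative cells, and 6.64 and 6.62 in untreated Lgr5-positive cells. With vismodegib it read 7.28 and 7.58 in Lgr5-negative and 6.95 and 7.11 in Lgr5-positive cells. The fall in Lgr5-negative cells was −2.39 ± 0.15, a 5.26-fold decrease (adjusted p 0.00088), and the Lgr5-positive cells were at 0.40 ± 0.15 (adjusted p 0.139). Both treated Lgr5-negative arrays lay more than 2 units below both untreated ones.

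Tgm5 ran against most members in the population difference of both treatments and in the drug effect in Lgr5-positive cells. It shared the sign of most members, 23 of 34, in the drug effect in Lgr5-negative cells. It read 9.70 and 10.25 in untreated Lgr5-positive cells, above the 9.32 and 9.05 of untreated Lgr5-negative cells, a difference of 0.79 ± 0.24 (adjusted p 0.065, and 0.0426 with the replicate block). With vismodegib it read 7.42 and 7.74 in Lgr5-negative and 8.54 and 9.06 in Lgr5-positive cells. It fell in Lgr5-negative cells by 1.61 ± 0.24 (3.05-fold, adjusted p 0.0186) and in Lgr5-positive cells by 1.17 ± 0.24 (2.25-fold, adjusted p 0.0233), the only member with a call in both populations in the same direction. The latter call was lost without untreated Lgr5-positive array 2 (adjusted p 0.101), without vismodegib Lgr5-positive array 1 (0.144) and with only the 4 arrays compared (0.0586). Tgm1, the membrane-bound transglutaminase that can attach lipids to the envelope, read 9.21 and 9.29, then 7.94 and 8.64 in untreated mice, and 8.51 and 8.21, then 8.12 and 7.13 after the drug, with the Lgr5-negative cells first. Its untreated difference of −0.96 ± 0.34 had an adjusted p of 0.0939, and 0.0292 with the replicate block.

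Casp14, a protease that acts late in cornification, was high in all Lgr5-negative arrays. It read 9.39 and 9.60 untreated and 8.97 and 8.21 after the drug there, against 4.70 and 6.74 in untreated and 7.61 and 7.46 in treated Lgr5-positive cells. Its change of 1.81 ± 0.58 in Lgr5-positive cells had an adjusted p of 0.0917, and was 2.84 (0.00368) without untreated Lgr5-positive array 2. Asprv1, an aspartic protease that cuts profilaggrin, read 11.45 and 11.33 in untreated Lgr5-negative and 10.04 and 9.99 in untreated Lgr5-positive cells, then 11.25 and 10.62 against 10.68 and 10.26. Its untreated difference was −1.37 ± 0.22 (2.59-fold), and neither drug effect passed. Spink5, the inhibitor of the proteases that release surface cells, read 5.39 and 6.22 in untreated Lgr5-negative and 4.16 and 4.41 in untreated Lgr5-positive cells. After the drug it read 5.71 and 4.64 against 4.64 and 3.88, so it was above the filter value only in Lgr5-negative cells.

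Among the barrier lipid genes, Abca12 rose with the drug in Lgr5-positive cells. It read 8.88 and 8.98 in untreated Lgr5-negative cells and only 4.54 and 4.79 in untreated Lgr5-positive cells, both under the filter value. After vismodegib it read 8.40 and 8.56 in Lgr5-negative and 7.63 and 7.22 in Lgr5-positive cells. The Lgr5-positive arrays thus rose from dim to well above the filter value, while the Lgr5-negative arrays stayed above 8. The rise was 2.76 ± 0.17 (adjusted p 0.00021), and the Lgr5-negative change was −0.45 ± 0.17 (adjusted p 0.202). The untreated Lgr5-positive arrays were under the 25th percentile of all signals, so no fold is given.

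Elovl4 elongates the very long acyl chains of barrier ceramides, and it moved in both populations towards a common level. It read 10.33 and 10.74 in untreated Lgr5-negative and 7.77 and 8.11 in untreated Lgr5-positive cells, then 9.44 and 9.37 against 9.004 and 8.842. It fell in the former by 1.13 ± 0.18 (2.19-fold, adjusted p 0.02) and rose in the latter by 0.98 ± 0.18 (1.98-fold, adjusted p 0.0132). It was the only member called in opposite directions, and no groups overlapped.

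Cers3 joins those chains to the sphingoid base. It read 7.13 and 7.53 in untreated Lgr5-negative cells, 4.54 and 4.55 in untreated Lgr5-positive cells, then 6.29 and 5.12 against 4.96 and 4.60. The untreated difference was −2.79 ± 0.34 (adjusted p 0.00278), with both untreated Lgr5-positive arrays under the filter value, so no fold is given. The drug effect in Lgr5-negative cells was −1.63 ± 0.34 with an adjusted p of 0.0518. That effect passed with the filter at the median (0.0352), with the mean of probe sets (0.0491), with cyclic loess (0.0498), an intensity trend (0.0396) and array weights (0.0403). The lipoxygenases Alox12b and Aloxe3, which oxidise the linoleate of the ceramides, read 4.60 to 5.86 and 6.05 to 6.45 and passed in no comparison of the model as described. The untreated difference of Alox12b was −0.71, with an adjusted p of 0.0452 with the replicate block, and −1.15 (0.0228) without untreated Lgr5-negative array 1.

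Secreted and surface proteins of the upper layers form the next group, with 6 members tested. In untreated Lgr5-positive cells 5 were lower, against 10.9% of all genes. With vismodegib 3 rose in Lgr5-positive cells, against 6.37% of all genes. Calm4, a calcium-binding relative of calmodulin found in the skin, read 11.89 and 11.84 in untreated Lgr5-negative and 8.62 and 9.36 in untreated Lgr5-positive cells, then 11.25 and 11.15 against 10.31 and 10.18. Its rise in Lgr5-positive cells was 1.26 ± 0.22 (2.39-fold, adjusted p 0.0121). Lypd3, a surface protein of the Ly6 family, read 11.76 and 11.73 in untreated Lgr5-negative and 10.34 and 10.27 in untreated Lgr5-positive cells, then 11.97 and 11.73 against 11.57 and 11.18. Its rise of 1.07 ± 0.16 (2.10-fold, adjusted p 0.00599) held without each array. In both genes the treated Lgr5-positive arrays lay between the 2 untreated populations.

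Ly6g6c, of the same family, read 10.27 and 10.26 in untreated Lgr5-negative and 6.32 and 8.69 in untreated Lgr5-positive cells, then 11.55 and 11.26 against 10.73 and 9.59. Its change of 2.66 ± 0.69 in Lgr5-positive cells just missed the threshold (adjusted p 0.0502), and passed with the filter at the median, the mean of probe sets, an intensity trend or array weights (0.0319 to 0.0474). Krtdap, a secreted differentiation protein, read 11.22 and 11.15 in untreated Lgr5-negative and 7.57 and 9.94 in untreated Lgr5-positive cells, then 11.23 and 10.68 against 10.16 and 9.72. Its untreated difference of −2.43 ± 0.65 had an adjusted p of 0.0412, but 0.0576 with no filter and 0.0776 with only the 4 arrays compared. Dmkn, or dermokine, read 11.93 and 11.97 in untreated Lgr5-negative and 10.42 and 11.20 in untreated Lgr5-positive cells, then 12.06 and 11.90 against 11.87 and 11.63, a rise of 0.94 ± 0.24 in the latter (adjusted p 0.0454). Sbsn, or suprabasin, read 10.65 to 11.67 and passed nowhere with the probe set used. That probe set carries another suffix (a). The Sbsn probe set with none of the suffixes (s, x or a) gave −1.23 between the untreated populations (adjusted p 0.00947) and 0.88 for the drug in Lgr5-positive cells (0.0408).

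Untreated Lgr5-positive cells were not uniform between the mice. In 28 of the 34 members the array of mouse 2 was higher than that of mouse 1, against 53.4% of all genes. The gap exceeded 2 units in Sprr2a1, Casp14, Krtdap and Ly6g6c, whose differences had standard errors of 0.58 to 0.89.

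Grhl3 and Ovol1 are transcription factors of late keratinocyte differentiation, and both were lower in untreated Lgr5-positive cells and rose there with the drug. Grhl3 read 9.08 and 8.83 in untreated Lgr5-negative and 6.26 and 6.36 in untreated Lgr5-positive cells, then 9.36 and 8.54 against 7.97 and 7.79. The rise in Lgr5-positive cells was 1.57 ± 0.25 (2.97-fold, adjusted p 0.00821), and the change in Lgr5-negative cells was 0.00 ± 0.25. Ovol1 read 10.35 and 10.40 in untreated Lgr5-negative and 7.95 and 8.17 in untreated Lgr5-positive cells, then 9.70 and 9.95 against 9.65 and 8.82. Its rise was 1.17 ± 0.25 (2.25-fold, adjusted p 0.0271). For both, the treated Lgr5-positive cells stood above the untreated ones without overlap.

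Members inside and outside the epidermal differentiation complex were also counted separately. Of the 11 tested members on chromosome 3, 6 were lower in untreated Lgr5-positive cells, 1 rose there with the drug and 3 fell in Lgr5-negative cells. Of the 23 on other chromosomes, the counts were 16, 9 and 3. These 23 include Spink5, Alox12b and Cers3, which passed the filter only with their Lgr5-negative arrays. Spink5 and Cers3 are among the 16, so the untreated counts of the 2 parts are not set against each other. Over all genes, 10.9% were lower in untreated Lgr5-positive cells, 6.37% rose there with the drug and 2.06% fell in Lgr5-negative cells. The 1 of 11 that rose on chromosome 3 is near the share of all genes. These are counts with no test of the difference.

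Related lists behaved in part alike. Of 18 other envelope genes tested, 6 were lower and 0 higher in untreated Lgr5-positive cells, against 10.9% and 6.21% of all genes. Among the lower were Stfa3 (−3.19), Sprr2f (−2.65), Csta1 (−2.19) and Lgals7 (−0.98). In Lgr5-negative cells, Sprr2f fell by 2.49 and Csta1, a cystatin built into the envelope, by 1.75 with vismodegib, and Krt80 rose by 1.44. In Lgr5-positive cells 3 rose, Krt80 (1.64), Tgm2 (0.96) and Lgals7 (0.69), against 6.37% of all genes. The median of this list was −0.54 in the untreated comparison and 0.05 for the drug in Lgr5-positive cells.

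Of 38 other barrier lipid genes, 14 were lower and 2 higher in untreated Lgr5-positive cells, against 10.9% and 6.21% of all genes. The 2 higher are near the share of all genes. Lipm, an acid lipase of the upper epidermis (−2.79), Cyp4f39, the fatty acid ω-hydroxylase of acylceramides (−2.18), Acer1, a ceramidase (−2.07), and Sult2b1, the cholesterol sulfotransferase (−1.94), had the largest differences. With vismodegib 5 rose and 3 fell in Lgr5-positive cells, led by Lipm (2.20), Fa2h (−1.92), the elongase Elovl7 (1.82) and Elovl6 (−1.63). Cyp4f39 fell by 1.11 and Asah1 by 1.01 in Lgr5-negative cells. The median drug effect of this list was 0.02 in Lgr5-positive cells, and over all genes 6.37% rose and 4.51% fell there.

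Desquamation genes, the kallikreins and their inhibitors that shed surface cells, included 9 lower and 1 higher of 21 in untreated Lgr5-positive cells. The shares of all genes were 10.9% and 6.21%. Serpinb2 (−4.67), Klk8 (−2.32), Klk7 (−2.25) and Klk11 (−2.16) differed most. Cst6, or cystatin M/E, an inhibitor of the cathepsins that activate Tgm3, rose by 3.30 in Lgr5-positive and by 2.35 in Lgr5-negative cells, and Klk11 (2.51) and Klk8 (0.96) rose in Lgr5-positive cells. In Lgr5-negative cells Ctsl, a cathepsin, fell by 1.14 and Blmh, a protease of filaggrin breakdown, by 0.95.

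Among 31 other transcription factors of differentiation, 8 were lower and 5 higher in untreated Lgr5-positive cells, against 10.9% and 6.21% of all genes. With the drug 9 rose and 3 fell in Lgr5-positive cells, against 6.37% and 4.51% of all genes. Ahr rose by 2.49, Ehf by 2.09 and Pou3f1 by 1.88, and Tcf7l1, a repressor found in stem cells of the follicle, fell by 1.65. In Lgr5-negative cells 0 of the 31 passed in either direction, where 1.26% of all genes rose and 2.06% fell. A count of 0 is near these shares.

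Of 18 suprabasal keratin and junction genes, 7 were lower and 0 higher in untreated Lgr5-positive cells, against 10.9% and 6.21% of all genes. With vismodegib 5 rose in Lgr5-positive cells, against 6.37% of all genes. The early differentiation keratins Krt1 (1.89) and Krt10 (1.68) rose, after untreated differences of −3.19 and −2.18. Krt77 rose by 4.55 in Lgr5-positive and by 4.59 in Lgr5-negative cells.

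Markers of other cells moved with some of these comparisons. With vismodegib, 17 of 21 macrophage and Langerhans cell markers tested rose in Lgr5-positive and 4 in Lgr5-negative cells. The shares of all genes were 6.37% and 1.26%. In untreated Lgr5-positive cells 8 of the 21 markers were lower, against 10.9% of all genes. Their mean signal was 7.09 to 7.45 in untreated Lgr5-negative, 5.89 to 6.24 in untreated Lgr5-positive, 7.99 in both treated Lgr5-negative and 8.44 to 8.75 in treated Lgr5-positive arrays. Of the 22 on the array, Lyz2, Adgre1, Itgam, Pf4 and Ptprc were at or under the filter value in both untreated Lgr5-positive arrays, and 0 were so in the treated ones. Their part in the members' results was not tested.

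Wound keratinocyte markers moved in part with the Lgr5-negative falls. Of the 5 tested, all were lower in untreated Lgr5-positive cells, against 10.9% of all genes. With the drug 3 of them, Krt16, S100a8 and S100a9, fell in Lgr5-negative cells, against 2.06% of all genes. Krt6a and Krt6b were not called there, and Krt6a rose with the drug in Lgr5-positive cells (0.83). The mean of the 5 was 11.19 to 11.64 in untreated Lgr5-negative and 8.39 to 9.33 in untreated Lgr5-positive arrays. It was 8.92 to 9.32 in treated Lgr5-negative and 8.43 to 8.76 in treated Lgr5-positive arrays. None of these markers was at or under the filter value in any group. Their part was not tested either. Basal keratinocyte markers averaged 11.36 to 11.91. Of these, Krt15 was higher in untreated Lgr5-positive cells (1.65), rose with the drug in Lgr5-negative cells (2.15) and passed the test of the difference between the drug effects (−1.73). For T cell markers the mean was 5.95 to 6.28, with Cd3e (−0.93) and Thy1 (−1.14) lower in untreated Lgr5-positive cells. The part of Krt15, Cd3e and Thy1 in the results was not tested. Inner root sheath and hair shaft markers averaged 5.76 to 6.01. Of these, Krt26 rose with the drug in Lgr5-positive (0.48) and in Lgr5-negative cells (1.25). In untreated Lgr5-positive cells Krt71 was higher (0.53) and Krt73 lower (−0.42). The part of Krt26, Krt71 and Krt73 was not tested.

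**Figure D4:**
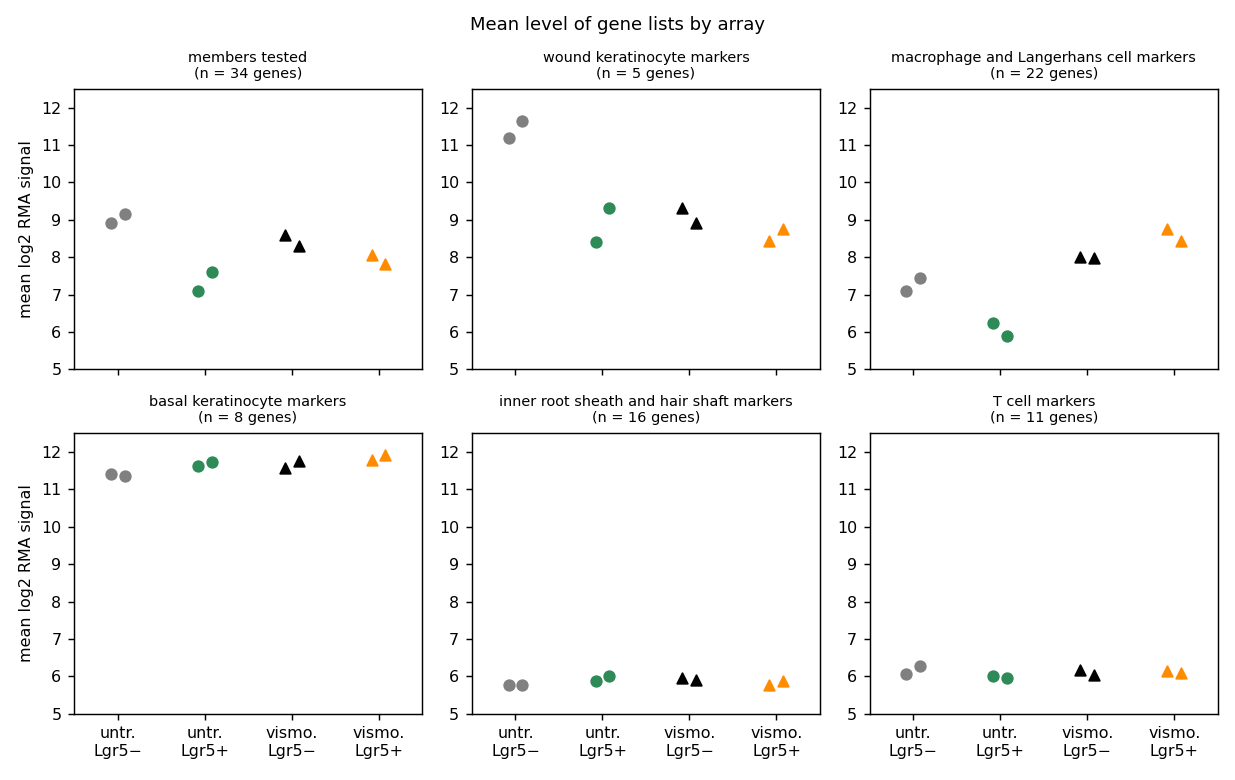
Mean log2 RMA signal of 6 gene lists on each of the 8 arrays, 2 arrays per group, on a common axis that starts at 5. The members lie at 8.90 and 9.15 in untreated Lgr5-negative, 7.10 and 7.61 in untreated Lgr5-positive, 8.59 and 8.30 in treated Lgr5-negative and 8.07 and 7.83 in treated Lgr5-positive arrays, while the macrophage and Langerhans cell markers are highest in treated Lgr5-positive arrays.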

How the data were processed

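The deposited values are log2 signals of 45141 probe sets on 8 Affymetrix arrays of amplified cDNA, made by the authors with RMA (version not stated) per the submitters' processing notes. RMA corrects background, normalises between arrays by quantiles and summarises probes. The values were used as deposited, and the number of arrays limits the precision. Platform annotation gave 28898 probe sets with 1 gene symbol and 551 with several, which were not used. By gene ID, 28689 matched RefSeq.

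Testing took genes whose signal passed 4.85, the 25th percentile, on 2 or more arrays, and used limma 3.58.1 (R 4.3.3), two-sided, in 1 model of 4 group means (4 residual and 3.53 prior degrees of freedom), adjusted by Benjamini and Hochberg over 14403 genes. Errors are the model's standard errors, over 2 mice per group. The 5 contrasts were the drug effect per population, the difference of populations per treatment and the difference between the drug effects. The labels give both populations of a treatment the same mouse numbers as the same animals, and their deviations from group means correlated at 0.142 and 0.211 across genes.

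The members and lists were chosen with earlier results of these data known. Members past the threshold in any contrast are given by array, and up to 4 genes by size of change from each other list. Sebocyte, endothelial and mast cell or neutrophil marker lists had 0 genes called in any contrast, melanocyte markers at most 1 in each, and fibroblast markers at most 3. Alternatives were the filter, the choice or mean of probe sets, cyclic loess, an intensity trend, array weights, a replicate block, only the arrays compared and leaving out each array. The procedure was tested on simulated data. Promoters came from RefSeq (GRCm38.p6).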

Additional observations from a re-analysis of the deposited data

Results flagged for a closer look

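The effect of vismodegib differed between the populations, by the interaction test of limma, in 6 genes. On the log2 scale, the effect in Lgr5-positive minus that in Lgr5-negative cells was 3.55 for Sprr2d (adjusted p 0.0393) and 3.07 for Sprr2h (0.027). It was 2.79 for Tgm3 and 3.21 for Abca12 (both 0.00951), 2.12 for Elovl4 (0.0171) and 1.92 for Calm4 (0.038). In Sprr2d, Sprr2h and Tgm3 the fall in Lgr5-negative cells passed the threshold, in Abca12 and Calm4 the rise in Lgr5-positive cells did, and in Elovl4 both did.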

How the results depend on the processing

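The 45 calls on members never changed direction under any alternative. With 2 arrays per group, leaving out 1 array cost between 6 and 22 of them, the most without the Lgr5-negative array of untreated mouse 2. Of the other alternatives, having no filter cost 7, using only the arrays compared 8 of 39 and the rest at most 3. The replicate block changed no call on a member other than those printed with the results. It was the mouse, which pairs the populations, for the population differences and the difference between the drug effects. For each drug effect it was the mouse number, which joins different animals across treatments and so pairs nothing.

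Leaving out 1 array at a time, members that rose in Lgr5-positive cells numbered 2 to 11 and those that fell 0 to 1 (all genes called 543 to 1823). In Lgr5-negative cells 0 to 1 rose and 1 to 7 fell (65 to 523). Between untreated populations 0 to 1 were higher and 11 to 21 lower (582 to 2852), and after vismodegib 0 to 2 were lower (18 to 107). For the difference of effects 1 to 9 were higher (2 to 251).

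For the population difference after vismodegib, all genes called numbered 36 with no filter, 105 with the replicate block and 11 with only the arrays compared, against 68, and 1 member, Abca12, was lower with the filter at the median. In Lgr5-negative cells, 1 member rose with the mean of probe sets (Scel) and 1 with only the arrays compared (Ly6g6c), where all genes called numbered 234 against 478, and in Lgr5-positive cells 0 members fell there. Between untreated populations, 2 members were higher with cyclic loess (Lce3c and Tgm5) and 1 with the replicate block (Tgm5). The cause of these changes was not tested, beyond the fewer arrays in some of them.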
